A study of Mus musculus with 11 samples.

Results

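The genes described here were 42 genes of the cell cycle and DNA replication, taken by name from the 32469 gene symbols of the count table. They were 16 genes of S phase, 16 of mitosis, 2 of the microtubule building block and its regulator (Tubb5 and Stmn1), 4 cyclins and kinases of G1, and 4 inhibitors of cyclin-dependent kinases (CDKs). All 42 symbols were in the table, and 36 passed the filter on low counts that left 6949 symbols for testing. S phase and mitosis genes were summed and scored apart in each library.

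The libraries were bulk RNA-seq of precursor exhausted CD8+ T cells, sorted as PD-1+ Ly108+ TIM-3- CD62L- cells from tumors of 11 wild-type C57BL/6 mice, with 1 library per mouse. The mice were 8-week-old females by the study's methods, and all carried subcutaneous tumors of Lewis lung carcinoma (LLC), a transplanted mouse lung cancer line. Of these mice 5 were untreated, and 6, labelled aLAG3, received 200 μg of an antibody against the checkpoint receptor LAG-3 (clone C9B7W) into the peritoneum on days 14 and 16 after inoculation. By the methods, tumors were cut out in sequence, a first on day 14 with its draining lymph node and a second on day 18. The deposited design gives day 21 for the second. The sequenced cells came from the second tumor, so the mice had earlier surgery, on the day of the first dose in the aLAG3 group. The comparison asked how these cells differed after LAG-3 blockade. The labels name no control antibody for the untreated mice, and the tumors came from a transplanted line rather than arising in the lung.

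A dividing cell passes from G1 into S phase once cyclin D with CDK4 or CDK6, and then cyclin E with CDK2, phosphorylate the retinoblastoma (RB) protein and free the E2F factors, which switch on the genes that copy DNA. Mitosis genes come later, through the MuvB complex with B-MYB and FOXM1, and the DREAM complex holds both sets down in resting cells. Precursor exhausted T cells are the self-renewing pool from which exhausted T cells are replenished, and the transcripts of both phases mark the cells in cycle among them.

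These 2 programs are known for different promoter elements, so the promoters of members were searched for them. Promoters of RefSeq genes in build GRCm38.p6 were found for 34 of the 42 members, and the 250 bases before the start were searched on both strands. The letters were TTTGAA and TTCGAA for the cell cycle homology region (CHR), the element known for MuvB binding, CCAAT for the CCAAT box, and TTTCCCGC, TTTCGCGC, TTTGCCGC or TTTGGCGC for E2F sites. TTCGAA reads the same on both strands, and the E2F words can overlap each other where their strands meet. A CHR was present in 6 of 13 mitosis promoters (46.2%) and in 2 of 13 S phase promoters (15.4%), against 19.6% of all 27025 genes with a promoter. An E2F word was present in 5 of 13 S phase promoters (38.5%) and 1 of 13 mitosis promoters (7.69%), against 2.16% of all. CCAAT was present in 12 of 13 mitosis promoters (92.3%) and 9 of 13 S phase promoters (69.2%), against 37.5% of all.

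The last 120 bases before the start are shown for 3 mitosis members and 2 S phase members, to let the layouts be compared. They lie in GRCm38.p6 at chr11:99024190-99024309 on the minus strand for Top2a, chr7:135716380-135716499 on the minus strand for Mki67, chr9:70421555-70421674 on the minus strand for Ccnb2, chr1:128359706-128359825 on the minus strand for Mcm6 and chr1:20820313-20820432 on the minus strand for Mcm3. Capitals mark the words above on either strand.
Top2a: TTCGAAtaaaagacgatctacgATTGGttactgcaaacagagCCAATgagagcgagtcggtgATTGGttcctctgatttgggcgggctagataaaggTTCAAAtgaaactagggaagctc
Mki67: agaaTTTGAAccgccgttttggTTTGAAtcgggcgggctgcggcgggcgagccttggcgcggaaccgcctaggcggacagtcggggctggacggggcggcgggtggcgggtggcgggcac
Ccnb2: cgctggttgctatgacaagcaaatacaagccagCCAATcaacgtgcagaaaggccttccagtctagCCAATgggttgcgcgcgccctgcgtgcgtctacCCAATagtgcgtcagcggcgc
Mcm6: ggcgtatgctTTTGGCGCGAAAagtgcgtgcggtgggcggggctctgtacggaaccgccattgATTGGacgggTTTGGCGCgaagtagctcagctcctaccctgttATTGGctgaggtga
Mcm3: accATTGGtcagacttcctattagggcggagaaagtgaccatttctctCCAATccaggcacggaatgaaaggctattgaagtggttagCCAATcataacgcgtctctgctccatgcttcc
The Top2a window held 3 CCAAT boxes and 2 CHR words, and that of Ccnb2 held 3 CCAAT boxes with no CHR (its CHR lies in the bases further upstream). The Mki67 window held 2 CHR words and no CCAAT box (it has one further upstream). Mcm6 held 3 E2F matches, of which the first pair overlap on opposite strands, and 2 CCAAT boxes, while Mcm3 held 3 CCAAT boxes and no E2F word. No other member with a promoter had an E2F word in its last 120 bases, so Mcm6 does not stand for the S phase members. A match is a run of letters and was not tested as a binding site.

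The depth was 317449 to 1271063 total counts per untreated library and 313524 to 1901374 per aLAG3 library. Levels are given as CPM, the read count scaled to a common library total with the TMM factor, and are compared between libraries, not between genes. The titles give a primer barcode, and 6 libraries with barcode 9 (untreated 1, 3 and 5, aLAG3 6, 7 and 9) were deeper (median 1141450.5) than the 4 with barcode 8 (untreated 4, aLAG3 8, 10 and 11; median 411796.5), with untreated 2 alone on barcode 10. A second identifier in the titles, whose meaning the labels do not give, is shared by untreated 2, untreated 3 and aLAG3 10, and another by untreated 4 and 5, while the other 6 libraries have one of their own. Against the labelled cell type, CD8 T cell genes summed to 4811 to 5388 CPM, and genes of precursor exhausted cells (Tcf7, Slamf6, Pdcd1, Tox, Id3 and Xcl1) to 1805 to 2341.7 CPM. The list of terminally exhausted cells summed to 381 to 599.9 CPM untreated and 334 to 429.4 CPM with aLAG3, and in it Havcr2, which encodes TIM-3, had 0 to 7 counts a library while Gzmb had 38 to 343, Prf1 31 to 256 and Cx3cr1 22 to 163. For lists of other cells, the highest sums are given for an untreated and then an aLAG3 library. They were 14.6 and 19.3 CPM (CD4 and regulatory T cells, mostly Cd40lg) and 35.9 and 27.0 CPM (NK cells, mostly Eomes). The B cell list reached 19.7 and 25.7 CPM (mostly Ebf1) and the tumor epithelium list 12.5 and 9.6 CPM (mostly Epcam). The stroma list summed to 137 to 215.2 CPM, nearly all of it Pecam1, which T cells also express. Klra8, S100a8, S100a9, Krt19 and Cldn4 were at 0 in every library. Of the 9 myeloid genes searched, the sum was 18.8 to 53.6 CPM in untreated libraries and 22.4 to 69.4 CPM in the aLAG3 libraries other than replicate 10, which held 138 CPM. In that library Cd68, C1qb, Lyz2 and C1qa gave the reads, and the other 5 of the list were at 0.

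Together, S phase and mitosis genes took between 0.121% and 0.196% of the reads of a library, and neither program differed between the groups by more than the spread of the mice. The 16 S phase genes summed to 1080.2, 1029.9, 1038.3, 1153.5 and 854.3 CPM in untreated libraries 1 to 5. In aLAG3 libraries they summed to 822 CPM at the lowest (replicate 10), 1066 at the median and 1209 at the highest (replicate 6). The groups overlapped across nearly the whole range, and each held 1 library well under the others. The means were 1031 ± 110 CPM (SD, n = 5) untreated and 1044 ± 125 CPM (SD, n = 6) with aLAG3, a difference of 0.02 on the log2 scale. In bulk samples, fewer cells in cycle and less of these RNAs per cycling cell cannot be told apart.

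The 16 mitosis genes summed to 617.8, 666.8, 595.9, 582.9 and 523.6 CPM in untreated libraries 1 to 5. In aLAG3 libraries the sum was 395 CPM at the lowest, 601 at the median and 750.3 at the highest. The aLAG3 libraries thus lay on both sides of all untreated ones, with replicate 10 below and replicates 6 and 9 above. The means were 597 ± 52.2 CPM (SD, n = 5) untreated and 605 ± 123 CPM (SD, n = 6) with aLAG3, and the means of the log2 sums differed by -0.01. On the score, which is the mean of the log2 CPM of the tested genes centred per gene, the difference was 0.01 for S phase (14 genes) and 0.01 for mitosis (13 genes). Within barcode 9, with 3 libraries a group, the log2 differences were 0.18 for the S phase sum, 0.22 for the mitosis sum, 0.20 for the S phase score and 0.18 for the mitosis score. Barcode 8 held 1 untreated library and barcode 10 no aLAG3 library, so no value is given within them. The 3 libraries that share the second identifier gave log2 differences of -0.33 (S phase sum) and -0.67 (mitosis sum) for aLAG3 replicate 10 against untreated 2 and 3, from 1 aLAG3 library. No other identifier held both groups, so a fit with the identifier as a block, chosen after seeing the data, draws its treatment term from these 3 libraries and has 2 residual degrees of freedom. In it, 0 of 36 members had an adjusted p under 0.05 by edgeR's quasi-likelihood test, against 0.23% of all tested genes, and 4 members had an unadjusted p under 0.05 (11.1%, against 6.98% of all tested genes). The median log2 fold change was -0.44 over S phase and -0.64 over mitosis members. The replicate, its primer barcode (8, against 10 in untreated 2 and 9 in untreated 3) and the treatment cannot be told apart there.

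**Figure D1:**
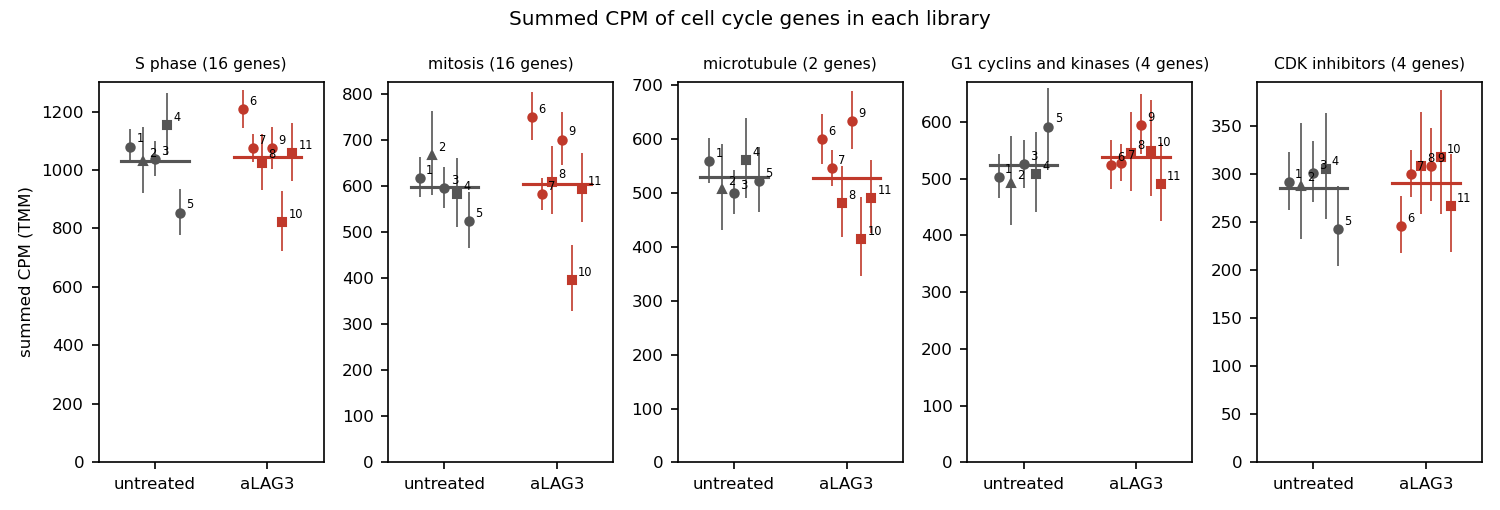
Summed CPM (vertical axes, from 0) of the members of each role in each library, with replicate numbers, untreated in grey and aLAG3 in red; bars are exact 95% Poisson intervals, which cover counting error only, horizontal lines are group means, and circles, squares and triangles are primer barcodes 9, 8 and 10. The mitosis sum runs from 395 CPM in aLAG3 replicate 10 to 750.3 CPM in aLAG3 replicate 6, with the 5 untreated libraries between 523.6 and 666.8 CPM.

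The libraries at the ends were the same for both programs. Replicate 10 of aLAG3 was lowest in the S phase sum (822 CPM, exact Poisson 95% interval 724.6 to 929.3) and in the mitosis sum (395 CPM, 328.3 to 471.3), and replicate 6 was highest in both (1208.5 CPM, 1144.6 to 1275.1, and 750.3 CPM, 700.1 to 803.1). The libraries were amplified by PCR without molecular identifiers, so these intervals cover counting error only. Among aLAG3 libraries, replicate 10 was the lowest in 8 of 14 tested S phase genes and 6 of 13 mitosis genes, against 23.9% of all tested genes, and it was the highest in 1 and 0 of them, against 23.3% of all. Replicate 10 was the shallowest library (313524 counts) and the one with the highest myeloid sum (138 CPM), and the part of either in its low values was not tested. The sort excluded cells stained for CD11b, B220, NK1.1 or TER119. Itgam, which encodes CD11b, had 0 to 7 counts a library and was at 0 in 3 libraries, this one among them, so its 0 here shows little. Among untreated libraries, replicate 5 was the lowest in 7 of 14 S phase genes, against 21.1% of all tested genes, and in 2 of 13 mitosis genes. Reads of mitosis genes per read of S phase genes lay between 0.505 and 0.647 in untreated libraries and between 0.48 and 0.653 in aLAG3 libraries, with replicate 10 at the low end.

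**Figure D2:**
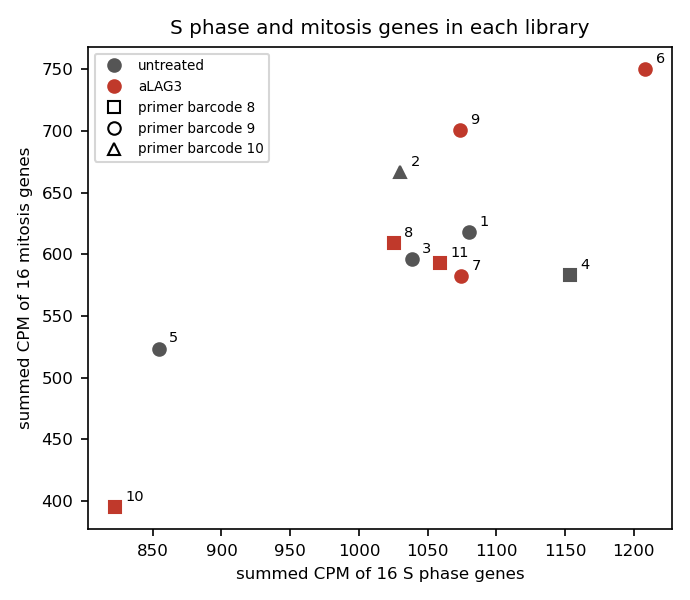
Summed CPM of the 16 S phase genes (horizontal axis) against that of the 16 mitosis genes (vertical axis) in each of the 11 libraries, neither axis starting at 0, with color for the group, shape for the primer barcode and the replicate number beside each point. Replicate 10 of aLAG3 (822 and 395 CPM) and untreated replicate 5 (854.3 and 523.6 CPM) sit at the lower left, and aLAG3 replicate 6 (1208.5 and 750.3 CPM) at the upper right.

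Gene by gene, no member was called. In edgeR's quasi-likelihood test, with p adjusted by the Benjamini-Hochberg method over all tested genes, 0 of 36 members had an adjusted p under 0.05, with a background of 0% (0 of 6949 genes) and a smallest adjusted p of 0.999. At an unadjusted p under 0.05 there were 0 of 36 members, against 3.73% of all tested genes (1.74% higher and 1.99% lower with aLAG3). The other tools also called 0 members, and at an unadjusted p under 0.05 edgeR's likelihood ratio test gave 1 (Cdk6), against 4.42% of all tested genes, and DESeq2 gave 0, against 2.35%. No member had groups that did not overlap in CPM, against 0.475% of all tested genes. The fold change was above 1 in 25 of 36 members (69.4%), against 51.1% of all tested genes, and the median log2 fold change was 0.06 over members and 0.00 over all tested genes. These fitted values weight libraries by depth. By the plain group means of CPM, 21 of 36 members (58.3%) were higher with aLAG3, against 51.4% of all tested genes, and the direction was the other one for Mcm2, Mcm5, Pcna, Mki67, Top2a, Cdk1, Tubb5 and Cdkn2d. With the title identifier as a block, which compares aLAG3 replicate 10 with untreated 2 and 3, most members lay the other way: 29 of 36 (80.6%) had a log2 fold change below 0, against 50.6% of all tested genes. The 95% interval of the fold change lay within 2-fold either way for 35 of 36 members (97.2%, as for 97.2% of all tested genes) and within 1.5-fold for 25 (69.4%, against 64.9% of all).

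**Figure D3:**
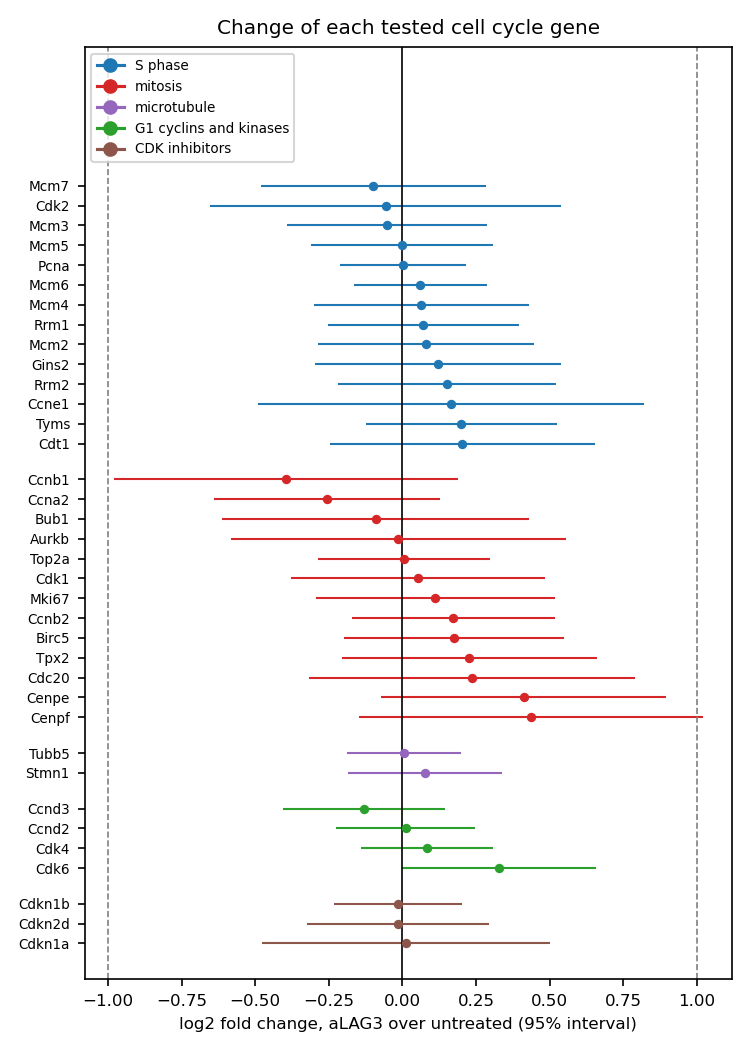
The log2 fold change of aLAG3 over untreated (horizontal axis) of each of the 36 tested members with its 95% interval, by role; the solid line is no difference and the dashed lines are 2-fold. Every interval crosses 0, and that of Cenpf, up to 1.02, is the one that passes a dashed line.

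Of the 14 S phase genes tested, 10 had higher and 4 lower fitted values with aLAG3, none of them called. Their log2 fold changes ran from -0.10 (Mcm7) to 0.20 (Cdt1), around a median of 0.07. All 14 intervals lay within 2-fold and 11 within 1.5-fold. Pcna encodes the sliding clamp of the DNA polymerases and had the most reads of this role. It stood at 263, 235, 259, 295 and 222 CPM in untreated libraries 1 to 5, and at 180 (lowest), 262 (median) and 283 CPM (highest) with aLAG3. The groups overlapped, with aLAG3 replicate 10 below every other library, and the log2 fold change was 0.00 (SE 0.10, 95% interval -0.21 to 0.22). Of the 50-base stretches of Pcna transcripts, 19.1% also occur in a pseudogene, Pcna-ps2, so its count is uncertain.

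Mcm6 is a subunit of the MCM2-7 helicase that unwinds DNA at the fork. Its CPM was 188, 153, 158, 185 and 147 in the untreated libraries and 145 (lowest), 179 (median) and 204 (highest) with aLAG3. The aLAG3 range took in the whole untreated range, with a log2 fold change of 0.06 (SE 0.11, 95% interval -0.16 to 0.29). Tyms, thymidylate synthase, which makes the thymidine nucleotide, had the smallest p of this role. It stood at 64.0, 75.1, 75.4, 78.0 and 50.04 CPM untreated and at 63.6 (lowest), 79.2 (median) and 101.2 CPM (highest) with aLAG3. Replicates 6, 10 and 11 of aLAG3 lay above all untreated libraries and the other 3 among them, and the log2 fold change was 0.20 (SE 0.16, 95% interval -0.12 to 0.52, unadjusted p = 0.216 by edgeR's quasi-likelihood test).

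The other helicase subunits did not share a direction. The log2 fold changes of Mcm2, Mcm4, Mcm5, Mcm3 and Mcm7 were 0.08, 0.06, -0.00, -0.05 and -0.10, with SEs of 0.15 to 0.19. Of Mcm7, 23.3% of the 50-base stretches are shared with other genes (Gm5487 and the antisense Ap4m1 among them). Gins2, a subunit of the GINS complex that joins the helicase at the fork, was at 0.12 (SE 0.20), but 65.4% of its stretches lie in Gse1, which overlaps it on the other strand, so its reads cannot be told from those of Gse1 without strand. Rrm1 and Rrm2, the large and small subunits of ribonucleotide reductase, which makes deoxynucleotides, were at 0.07 (SE 0.16) and 0.15 (SE 0.18). Cdt1, which loads the helicase at origins, was at 0.20 (SE 0.22). Ccne1, encoding cyclin E1, had 1 to 26 counts a library and a log2 fold change of 0.16 (SE 0.32), and its partner kinase Cdk2 had 4 to 29 counts and -0.06 (SE 0.29).

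Of the 16, 2 fell under the filter. Cdc6, which loads the helicase together with Cdt1, had 14, 4, 9, 9 and 5 counts in the untreated libraries and 1 to 17 counts with aLAG3. Ccne2, encoding cyclin E2, had 4, 0, 1, 1 and 1 counts in the untreated libraries and 6, 13, 6, 1, 1 and 2 counts in aLAG3 libraries 6 to 11, which overlap. With no filter, edgeR's quasi-likelihood test gave Ccne2 a log2 fold change of 1.56 (SE 0.65) with an adjusted p of 0.722 (unadjusted 0.0167), on 36 reads in all. Of its stretches 14.4% lie in the antisense Ints8.

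Of the 13 mitosis genes tested, 9 had higher and 4 lower fitted values with aLAG3, none of them called. Their log2 fold changes ran from -0.39 (Ccnb1) to 0.44 (Cenpf), around a median of 0.11 (0.07 by DESeq2 and 0.20 with the primer barcode as a covariate). By plain group means 6 of the 13 were higher with aLAG3. Of the intervals, 12 lay within 2-fold and 6 within 1.5-fold. Top2a, topoisomerase IIα, which untangles chromosomes before they part, had the most reads of the role. Its CPM was 153, 125, 136, 137 and 98.3 untreated and 70.7 (lowest), 133 (median) and 162 (highest) with aLAG3. Both ends were aLAG3 libraries, replicates 10 and 6, and the log2 fold change was 0.01 (SE 0.14, 95% interval -0.29 to 0.30).

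Ccna2 encodes cyclin A2, which acts from S phase into early mitosis. It stood at 78.1, 40.7, 68.7, 82.9 and 42.9 CPM untreated and at 40.8 (lowest), 49.6 (median) and 76.8 CPM (highest) with aLAG3. Untreated libraries formed a high set (1, 3 and 4) and a low pair (2 and 5), and only replicate 6 of aLAG3 reached the high set. The log2 fold change was -0.26 (SE 0.19, 95% interval -0.64 to 0.13), and without replicate 6 it was -0.42, with an unadjusted p under 0.05 in edgeR's quasi-likelihood test and an adjusted p of 1. Of its stretches 11.4% lie in the antisense Exosc9.

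Cenpe encodes CENP-E, the kinetochore motor that brings chromosomes to the spindle equator, and had the smallest p of the role. Its CPM was 19.5, 15.7, 28.0, 12.2 and 28.6 untreated and 21.6 (lowest), 28.3 (median) and 42.7 (highest) with aLAG3. Untreated replicates 3 and 5 lay within the aLAG3 range and the other 3 below all of it. The log2 fold change was 0.41 (SE 0.24, 95% interval -0.07 to 0.89, unadjusted p = 0.0918 by edgeR's quasi-likelihood test). Without untreated replicate 3 it was 0.57, with an unadjusted p under 0.05 and an adjusted p of 0.999 by that test. Cenpf, another kinetochore protein, had 2 to 33 counts a library and a log2 fold change of 0.44 (SE 0.28). It reached the filter's 17.7 CPM in aLAG3 libraries 6, 8, 9 and 11 and in untreated library 1. It was thus tested mainly through the group where it was higher, and in 6 of the 11 fits without 1 library.

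The cyclin B genes, whose products drive entry into mitosis with Cdk1, gave -0.39 (SE 0.28) for Ccnb1 and 0.17 (SE 0.17) for Ccnb2. Ccnb1 had 1 to 31 counts a library, and 23.4% of its stretches are shared, Ccnb1-ps among the sharing genes. Cdk1 itself was at 0.05 (SE 0.21). Mki67, which encodes the proliferation marker Ki-67, averaged 59.9 ± 23.4 CPM (SD, n = 5) untreated and 58.6 ± 16.9 CPM (SD, n = 6) with aLAG3, a lower plain mean, while the fitted log2 fold change, which weights libraries by depth, was 0.11 (SE 0.20). Of the chromosomal passenger complex, which corrects spindle attachments, Birc5 (survivin) was at 0.18 (SE 0.18) and Aurkb (Aurora B kinase) at -0.01 (SE 0.28). Tpx2, which builds spindle microtubules, was at 0.23 (SE 0.21), Cdc20, which activates the ligase that ends metaphase, at 0.24 (SE 0.27), and Bub1, a kinase of the spindle checkpoint, at -0.09 (SE 0.25). Under the filter were the checkpoint gene Bub1b with 2 to 28 counts a library, and the mitotic kinases Plk1 with 0 to 25 and Aurka with 0 to 11, each with overlapping groups. Of the 50-base stretches, 10.6% are shared for Cdc20 (the antisense Elovl1 among the sharing genes) and 10.4% for Plk1. Cdkn1a (8.49%), Ccnd2 (6.31%), Tyms (5.72%) and Ccnd3 (5.39%) were also above 5%, as were 14 of the 42 members in all.

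**Figure D4:**
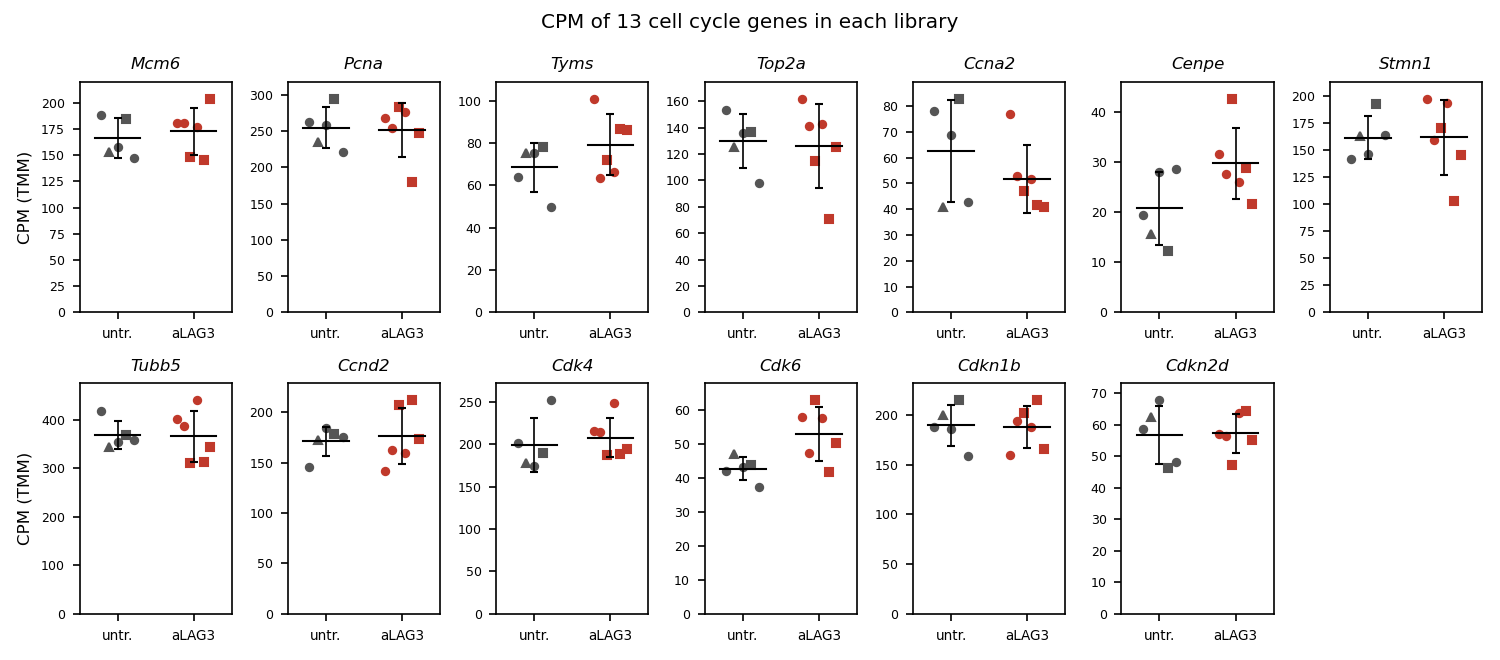
CPM (vertical axes, from 0) of 13 members in each library, untreated in grey and aLAG3 in red, with the group mean and SD in black and primer barcodes 9, 8 and 10 as circles, squares and triangles. The groups overlap in each panel, and for Cdk6 aLAG3 replicate 10 (41.8 CPM) is the library that lies among the untreated ones (37.5 to 47.0 CPM).

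Tubb5, a β-tubulin, and Stmn1, stathmin, which binds tubulin dimers, are raised in dividing T cells but are used by resting cells too. Tubb5 stood at 417, 344, 353, 368 and 357 CPM untreated and at 310 (lowest), 365 (median) and 440 CPM (highest) with aLAG3. Its log2 fold change was 0.00 (SE 0.09, 95% interval -0.19 to 0.20), with aLAG3 libraries on both sides of the untreated ones. Stmn1 stood at 142, 163, 147, 193 and 164 CPM untreated and at 103 (lowest, replicate 10), 166 (median) and 198 CPM (highest, replicate 6) with aLAG3. Its groups overlapped, with a log2 fold change of 0.08 (SE 0.13, 95% interval -0.19 to 0.34), and 18.9% of its stretches are shared, Gm11223 among the sharing genes.

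In G1, 3 of 4 genes had higher fitted values with aLAG3, none of them called, with a median log2 fold change of 0.05. Cdk6, a kinase that pairs with D cyclins to start RB phosphorylation, had the smallest p of all members. Its CPM was 42.2, 47.0, 43.2, 43.9 and 37.5 untreated and 41.8 (lowest, replicate 10), 54.1 (median) and 63.0 (highest) with aLAG3. The other 5 aLAG3 libraries lay above all untreated ones. Its mean was 42.8 ± 3.42 CPM (SD, n = 5) without treatment and 53.0 ± 7.87 CPM (SD, n = 6) after it. The log2 fold change was 0.33 (SE 0.16, 95% interval -0.00 to 0.66), with an adjusted p of 0.999 by edgeR's quasi-likelihood test (unadjusted 0.0502). With the title identifier as a block it was -0.08, and over all other settings and left-out libraries it stayed between 0.29 and 0.38 with the lowest adjusted p at 0.722. Its unadjusted p passed under 0.05 in the likelihood ratio test and, in the quasi-likelihood test, without aLAG3 replicate 7 or 10.

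The other G1 genes were closer between the groups. Cdk4, the sister kinase, stood at 202, 178, 174, 190 and 252 CPM untreated and at 187 (lowest), 204 (median) and 248 CPM (highest) with aLAG3. Untreated replicate 5 was above every other library, and the log2 fold change was 0.08 (SE 0.11, 95% interval -0.14 to 0.31). Of its stretches 17.0% are shared, the antisense Tspan31 among the sharing genes. Ccnd2, encoding cyclin D2, the D cyclin induced by T cell receptor signals, stood at 146, 172, 184, 178 and 175 CPM untreated and at 142 (lowest, replicate 6), 168 (median) and 212 CPM (highest, replicate 10) with aLAG3. The ends were the same libraries as for the mitosis sum but in the reverse order, and the log2 fold change was 0.01 (SE 0.12, 95% interval -0.22 to 0.25). Ccnd3, encoding cyclin D3, was at -0.13 (SE 0.14).

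The CDK inhibitors, which hold the kinases back, differed by less than their spread. Their sum was 286 ± 24.8 CPM (SD, n = 5) untreated and 291 ± 28.4 CPM (SD, n = 6) with aLAG3. Cdkn1b, encoding p27, a keeper of quiescence in T cells, stood at 188, 200, 186, 215 and 159 CPM untreated and at 160 (lowest, replicate 6), 191 (median) and 215 CPM (highest, replicate 10) with aLAG3. Its ranges were nearly the same, with a log2 fold change of -0.02 (SE 0.11, 95% interval -0.23 to 0.20). Cdkn2d, encoding the CDK4 and CDK6 inhibitor p19, stood at 58.6, 62.6, 67.8, 46.3 and 48.3 CPM untreated and at 47.2 (lowest), 56.7 (median) and 64.2 CPM (highest) with aLAG3. Its groups overlapped, and the log2 fold change was -0.02 (SE 0.15, 95% interval -0.32 to 0.29). Cdkn1a, encoding p21, the inhibitor induced by p53, was at 0.01 (SE 0.24), and Cdkn2c, encoding p18, fell under the filter with 21, 0, 15, 1 and 7 counts in the untreated libraries and 2 to 22 with aLAG3.

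Within groups, members of the 2 programs varied together across libraries, and a single library carried much of this for the mitosis genes and between the programs. With each gene's log2 CPM centred on its group mean, the median Pearson r over the 11 libraries was 0.22 between S phase genes (91 pairs), 0.30 between mitosis genes (78 pairs) and 0.23 between the programs (182 pairs), against -0.00 over pairs of all tested genes. With Stmn1 and Tubb5 it was 0.37, with the G1 genes 0.04 and with the CDK inhibitors -0.14. Without aLAG3 replicate 10, an alternative chosen after seeing the data, the medians were 0.15, 0.06 and 0.08 for the first 3 and 0.16, 0.00 and -0.02 for the others, and 68.1%, 59% and 55.5% of the first 3 sets of pairs were above 0 (78%, 76.9% and 76.4% over all libraries). Without any 1 of the other 10 libraries, the first 3 medians were 0.16 to 0.31, 0.26 to 0.35 and 0.16 to 0.28, with the lowest S phase and between-program values without aLAG3 replicate 6. These are descriptions. The points share libraries, depth and scaling, and the genes of a pair come from the same library.

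Against the mean of the other tested S phase and mitosis genes, Top2a followed the programs most closely (r = 0.90 over 11 libraries, 0.67 without replicate 10). Next over all libraries were Ccnb1 (0.85 and 0.52) and Ccne1 (0.82 and 0.44). Ccnb1 and Ccne1 each had 1 count in replicate 10, and without it Mcm5, Rrm2 and Tyms had higher values than either. Cdk6 also varied with them (0.80 and 0.61). Ccnd2 ran the other way (-0.69 and -0.52), as the order of its libraries shows. For Mcm5 and Tyms the value went from -0.10 and 0.13 to 0.67 and 0.65 without replicate 10, and for Pcna it went from 0.75 to 0.18. The largest change was that of Cdc20, from 0.38 to -0.56, which turned its sign.

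**Figure D5:**
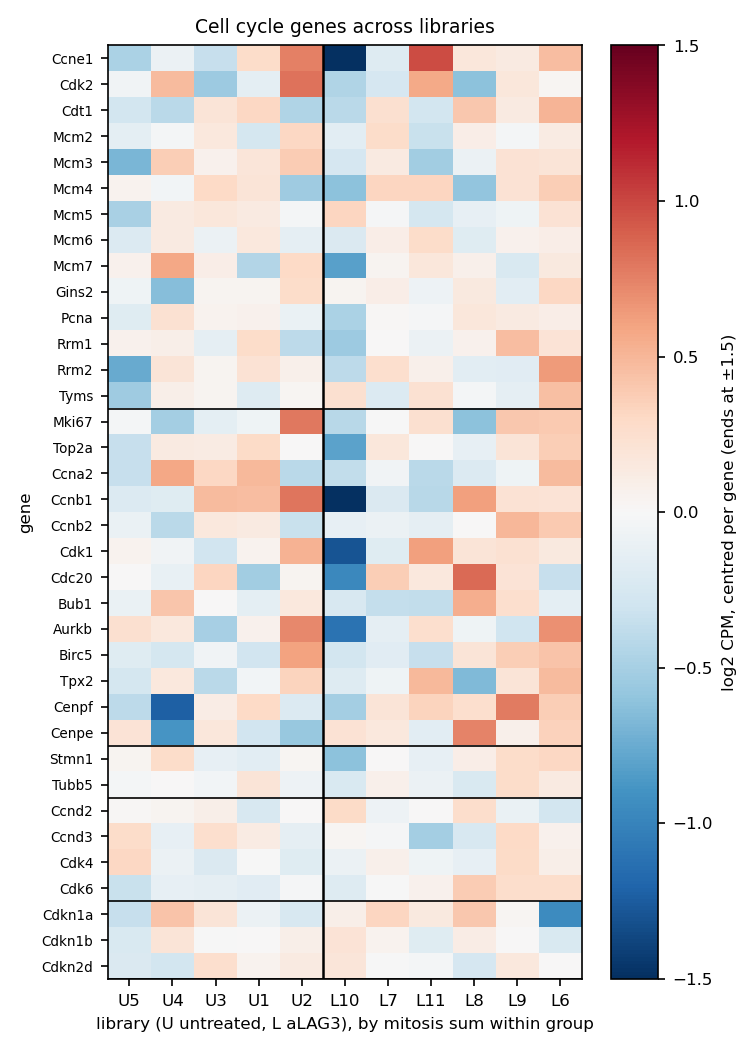
Log2 CPM of the 36 tested members (rows, by role, with lines between the roles) in the 11 libraries (columns), centred on each gene's mean over all libraries, red for higher and blue for lower, with colors ending at ±1.5; libraries are ordered by their mitosis sum within the untreated (U) and aLAG3 (L) groups. Column L10 is blue for most S phase and mitosis genes, with 8 of 14 and 6 of 13 of them lowest there among aLAG3 libraries, and column L6 is mostly red.

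Other genes of the same pathways, on lists of known S phase, mitosis and RB, E2F and DREAM genes outside the 42, gave the same counts of calls. Of 52 other S phase genes (origin recognition, GINS, replication factor C, polymerases and others) 40 were tested and 25 had higher fitted values. Of 53 other mitosis genes 51 were in the table under their listed symbols, 37 were tested and 22 had higher fitted values. Of 36 regulators 16 were tested and 6 had higher fitted values. By edgeR's quasi-likelihood test 0 of these 93 had an adjusted p under 0.05 and 0 an unadjusted p under 0.05, against 3.73% of all tested genes unadjusted. The median log2 fold changes were 0.12, 0.03 and -0.01.

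The genes with the smallest p in these lists were Rfc5, a clamp loader subunit, at 0.39 (SE 0.19), and Hells, a chromatin remodeler active in S phase, at 0.39 (SE 0.20). In mitosis they were Spc24, a kinetochore protein of the NDC80 complex, at 0.26 (SE 0.17), and Kif15, a spindle motor, at 0.20 (SE 0.14). Among the regulators they were Rbl2, which encodes the pocket protein p130 of the DREAM complex, at -0.24 (SE 0.15), and Tfdp1, the partner of E2F factors, at 0.19 (SE 0.20). For the other S phase and mitosis genes the libraries at the ends were those of the members. The other S phase genes summed to 1734.3 CPM in aLAG3 replicate 10 and 2316.7 CPM in replicate 6, the lowest and highest of the 11, and the other mitosis genes to 2813.5 and 3857 CPM, again the lowest and highest. The regulators had other ends, 1183.7 CPM in aLAG3 replicate 7 and 1406.5 CPM in replicate 9, with replicates 10 and 6 between them at 1268.6 and 1243.8 CPM.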

How the data were processed

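The authors deposited raw counts of reads per gene symbol, with 1 column per library. Per the submitters' processing notes, reads were trimmed with cutadapt 4.1 and mapped with Bowtie2 2.4.5. By the study's methods the target was reference RNA of GRCm38, release 101. The handling of multi-mapping reads and of strand is not given in the sources used here. The library method (on-bead reverse transcription, template switching, PCR) has no molecular identifiers.

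The 42 members, the lists and the tests were chosen with earlier results of these data known. Symbols were kept by filterByExpr (a minimum of 10 counts at median depth, or 17.7 CPM, in 5 libraries, and 15 counts in all), scaled by TMM and tested in edgeR 4.0.16 (R 4.3.3) by the quasi-likelihood test with Benjamini-Hochberg adjustment (threshold 0.05). SEs are the absolute log2 fold change over the square root of F. Scores used a prior count of 2. DESeq2 1.42.0, the likelihood ratio test, other scaling, no filter, primer barcode as a covariate and leaving out each library were the alternatives. The quasi-likelihood test was also run on counts simulated with the fitted dispersions. The outcome is not given here, so that run says nothing about which changes the test would find. Total counts of 313524 to 1901374 put the 3-count floor at 1.57 to 9.64 CPM. The table had 0 unused columns. Values per library are given for the 2 members with most reads and the one with the smallest p in each role. Coordinates and shared sequence (50-base stretches on either strand) are from GENCODE M21, which annotates GRCm38 but differs in release from the mapping reference. The labels give groups, library numbers, primer barcodes and a second identifier, and 11 mice gave 11 libraries.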

Additional observations from a re-analysis of the deposited data

Results flagged for a closer look

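By Dixon's criterion, 5 of 40 sets of values (2 expected by chance, at about 1 in 20, and the sets share libraries and genes) held a library far from the others of its group. The S phase score of untreated replicate 5 was -0.262, against 0.00195 to 0.0934 in the other untreated libraries. The summed CPM of the CDK inhibitors was also low in untreated replicate 5, at 243 against 288 to 305. The mitosis score of aLAG3 replicate 10 was -0.603, against -0.0314 to 0.291 in the other aLAG3 libraries. Pcna stood at 180 CPM in aLAG3 replicate 10 against 247 to 283 CPM in the others. Ccna2 stood at 76.8 CPM in aLAG3 replicate 6 against 40.8 to 52.7 CPM in the others.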

How the results depend on the processing

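No paired analysis was possible because no replicate number is shared between the groups, so numbers pair no samples. The count of called members was 0 in every alternative that was run. With no filter on low counts 3 genes were called (Ccl1, Plac8 and 5830405F06Rik, none a member), and leaving out 1 library gave 0 to 2 called genes (2 without aLAG3 replicate 7). Of 180 member values under the other alternatives, 167 kept their direction and 13 changed it, each of them reported between -0.06 and 0.01, and 19 of the 36 members kept their direction in each of these and in every fit without 1 library that tested them. Of the 19, 16 were tested in all such fits, while Ccne1, Bub1 and Cenpf fell under the filter in some, and 12 had the opposite sign with the title identifier as a block. Changed were, on the log2 scale, Top2a in the likelihood ratio test (-0.00112), Pcna (-0.0017) and Top2a (-0.00953) in DESeq2, Pcna with RLE scaling (-0.00327), Mcm5 (0.00904) and Aurkb (0.00367) with no filter, and Cdk2 (0.0614), Mcm3 (0.0205), Pcna (-0.0132), Aurkb (0.126), Ccnd2 (-0.0427), Cdkn1a (-0.0788) and Cdkn2d (0.0296) with the barcode as a covariate. The cause was not tested. Leaving out 1 library changed 60 of 381 member values, with ranges of Cdk2 -0.271 to 0.093, Mcm2 -0.0184 to 0.145, Mcm3 -0.187 to 0.00627, Mcm4 -0.00946 to 0.145, Mcm5 -0.0991 to 0.0492, Mcm7 -0.27 to 0.0134, Pcna -0.0446 to 0.0577, Rrm1 -0.028 to 0.179, Rrm2 -0.0148 to 0.242, Top2a -0.0803 to 0.0892, Cdk1 -0.0624 to 0.142, Aurkb -0.279 to 0.0996, Tubb5 -0.0566 to 0.0631, Ccnd2 -0.0539 to 0.0699, Cdkn1a -0.141 to 0.205, Cdkn1b -0.0693 to 0.0299, Cdkn2d -0.0674 to 0.0742. Without 1 library, the S phase score difference ranged from -0.0523 (without untreated replicate 5) to 0.09 (without aLAG3 replicate 10), the S phase sum from -0.0511 to 0.0821 on the log2 scale (the same libraries), the mitosis score from -0.0435 (without aLAG3 replicate 6) to 0.135 (without aLAG3 replicate 10) and the mitosis sum from -0.0727 to 0.112 (the same libraries). The median log2 fold change ranged from 0.0168 to 0.111 over S phase and from 0.0229 to 0.158 over mitosis members, and under the other alternatives from 0.0603 (DESeq2) to 0.0783 (no filter) and from 0.0656 (DESeq2) to 0.2 (barcode as a covariate), with 0.184 for mitosis with no filter. With the title identifier as a block, which rests on untreated 2 and 3 against aLAG3 10, 16 genes and 0 members were called and the medians were -0.444 (S phase) and -0.643 (mitosis). There 4 members (Mcm7, Top2a, Ccnb1 and Cdk1, all lower) had an unadjusted p under 0.05, against 485 of 6949 genes. Within barcode 9 the S phase score difference was 0.197 and the mitosis sum difference 0.222. Depth limits the members with few reads: 6 of 42 were under the filter, and among tested members the interval of Cenpf passed 2-fold.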
